A study of Mus musculus with 10 samples.

Results

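The cells described here are the 72 cells that the authors' deposited table labels as Rbpms-positive macrophages, 6.16% of the 1168 microglia and macrophages in the series. They were taken by that label alone, and the other 1096 cells carry the label of Rbpms-negative macrophages. Every labelled cell held at least 1 Rbpms UMI (unique molecular identifier, a count of captured RNA molecules) and 0 of the negative cells held any. The class is therefore a count of 1 or more for a single gene, and the Rbpms values below describe the class and test nothing.

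Rbpms encodes an RNA-binding protein with an RNA recognition motif. In the retina it is widely used to mark retinal ganglion cells (RGCs), the neurons whose axons form the optic nerve, and outside the retina it is known from smooth muscle and other vascular cells. Microglia are the resident phagocytes of retina and nerve, and after axon injury they and infiltrating macrophages clear debris and take up lipid. The series asks whether cells of this lineage carry Rbpms and can be mistaken for RGCs.

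The mice were wildtype, of the 129S1/SvlmJ strain and of both sexes, and were 10 weeks old when cells were taken. Injured animals had an optic nerve crush at 8 weeks, and their tissue was collected 2 weeks later; uninjured animals had no treatment. Single-cell libraries from 10x 3' chemistry came from retina and optic nerve of both states, with 2 libraries in each of the 4 groups. The 4 injured retina samples appear in the table as 2 pools of 2 samples, so 10 samples gave 8 libraries. Nothing in the labels says how many animals each library holds, so the spread between libraries may be partly technical. The crush and control libraries are labelled as microglia or macrophages of retina or optic nerve, and the labels name no sort or gate.

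Libraries differed in size and depth. They held 12 to 682 cells, and injured optic nerve library 3 alone gave 38 of the 72 positive cells. Cells that met a marker rule of another type were present: 325 for oligodendrocytes, 9 for endothelial cells, 1 for mural cells and 8 for T and NK cells. The rule asked for at least 3 markers of a list and at least 0.5% of the cell's UMIs from it. These 341 listed cells are left out of some values below, as stated. No doublet caller was run, and 2 barcodes occurred in more than 1 library, with 0 positive cells among them.

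Positive cells were deep cells. Their median depth was 14751.5 UMIs against 2230 UMIs in negative cells, with a range of 509 to 53571 UMIs. They showed 335 to 6231 genes, with a median of 3169.5. Most held very little Rbpms: 57 cells had 1 UMI, 10 had 2, 2 had 3, and 1 cell each had 4, 5 and 14, for 106 UMIs in all. Cells with 1 Rbpms UMI had a median depth of 12524 UMIs, and those with 2 or more had 21652 UMIs.

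The share of positive cells was higher among deeper cells, while over all libraries the amount of Rbpms per UMI was not. Of cells under 1000 UMIs 1.44% were positive (4 of 277, exact 95% interval 0.395% to 3.66%). From 1000 to under 3000 UMIs 1.94% were positive, and from 3000 to under 10000 UMIs 7.59%. The share reached 13.4% (34 of 253) from 10000 UMIs and 22.0% (9 of 41, 10.6% to 37.6%) from 30000 UMIs. Intervals on shares cover counting error only. Summed over the cells of each depth range, Rbpms stood at 20.53, 13.9, 15.9, 10.0 and 18.1 CPM (Rbpms UMIs scaled to a common total, as counts per 1e6 UMIs), in the same order. Without the listed cells these levels were 30.4, 17.5, 18.3, 8.20 and 9.51 CPM. The shallowest cells had the highest level both with and without the listed cells, on 4 Rbpms UMIs in all. Inside injured optic nerve library 3 alone the shares were 1.65% and 1.44% in the lowest ranges and 5.88%, 13.1% and 16.2% in the deeper ones. In the first injured retina pool, by contrast, the level itself was higher in deeper cells, at 0, 6.87, 11.9 and 36.0 CPM from 1000 UMIs upward, on 0, 1, 13 and 6 Rbpms UMIs.

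**Figure D1:**
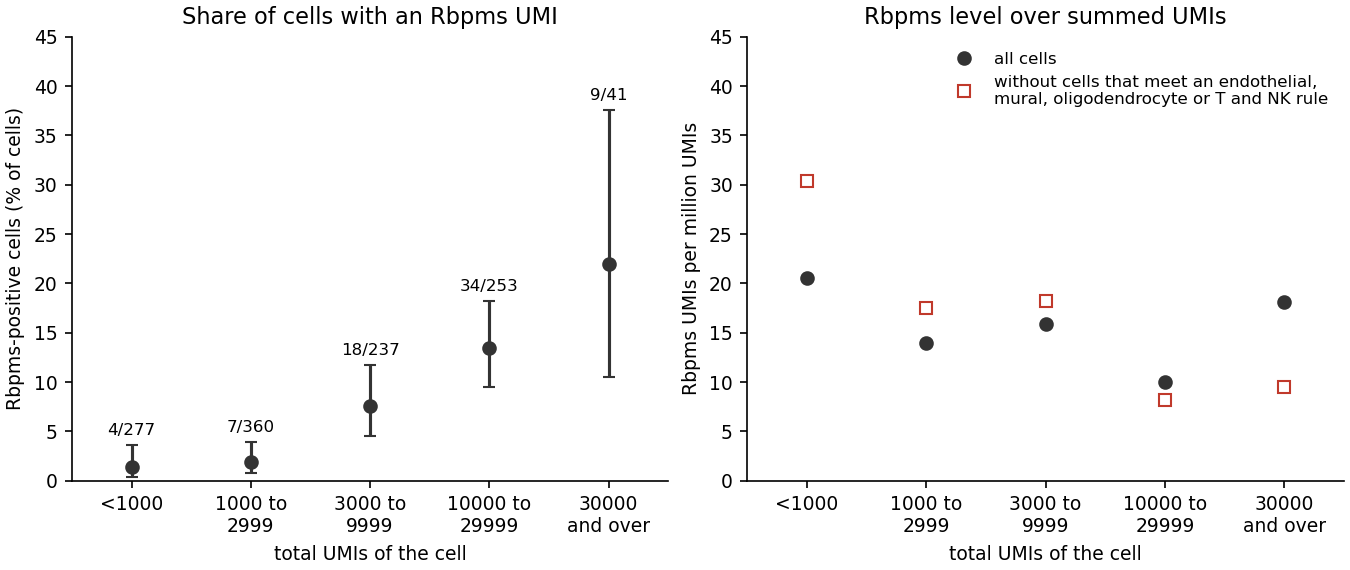
Share of Rbpms-positive cells with exact 95% intervals (left, percent of cells) and Rbpms CPM over summed UMIs (right), by total UMIs of the cell, over all 8 libraries. The share climbs from 1.44% to 22.0% while the level stays between 10.0 and 20.53 CPM for all cells.

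Most positive cells carried a macrophage identity. Of 15 pan-macrophage markers, such as Cd68, Aif1, Tyrobp and Ctss, a positive cell showed a median of 13.5, and 59 of 72 cells (81.9%) showed at least 10. For comparison at equal depth, each positive cell was paired with up to 3 negative cells of the same library within a factor of 1.5 in total UMIs, which matched 70 positive with 205 negative cells. At least 10 markers were then seen in 82.9% of matched positive and 84.9% of matched negative cells. Ctss, a lysosomal protease, had a UMI in 94.3% and 96.6% of them, and Lyz2, the lysozyme of myeloid cells, in 88.6% and 88.3%. Apart from Lyz2 and Ptprc (84.3% and 78.0%), each pan-macrophage marker was seen in a smaller share of matched positive cells. Among these were Tyrobp (87.1% and 93.2%) and Aif1 (75.7% and 83.4%). Of the microglia genes, the purinergic receptor P2ry12 was seen in 47.1% of matched positive and 55.1% of matched negative cells, and Tmem119 in 45.7% and 47.3%. Every microglia marker of the list was seen in a smaller share of matched positive cells, with Cx3cr1 in 71.4% and 82.4%. At least 10 microglia markers were seen in 67.1% of matched positive and 79.5% of matched negative cells.

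A small group of positive cells had few or none of these markers. The cells with 14, 5 and 4 Rbpms UMIs each showed all 17 endothelial markers and 2, 0 and 0 of the 15 pan-macrophage markers. Cldn5, a tight junction gene of brain and retinal endothelium, had 58, 88 and 83 UMIs in these cells, and the endothelial adhesion gene Pecam1 had 39, 23 and 6. In all, 5 positive cells met the endothelial rule and 1 the mural rule, the latter with 26 UMIs of Rgs5, a pericyte gene. These 6 cells held 26 of the 106 Rbpms UMIs (24.5%), and 5 of them showed 2 or fewer pan-macrophage markers. The sixth, from uninjured retina library 5, had 10 pan-macrophage markers and 9 endothelial ones, so markers of both kinds lay under 1 barcode. A further positive cell met a fibroblast rule with 0 pan-macrophage markers, and 2 met only the oligodendrocyte rule with 11 and 15. One more cell lay just outside the endothelial rule, with 8 endothelial markers at 0.471% of its UMIs and 1 pan-macrophage marker.

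The other 63 positive cells (87.5%) met none of these rules. They held 75 Rbpms UMIs, at most 3 in any cell, and showed a median of 14 pan-macrophage markers, with at least 10 in 56 of them. Per UMI, Rbpms was higher in cells that met the endothelial rule: the 9 cells of that rule, positive or not, stood at 226 CPM (25 UMIs), and 5 of 9 were positive (55.6%, exact interval 21.2% to 86.3%). The 827 cells outside the 4 listed types stood at 10.8 CPM (77 UMIs), and 64 of them were positive (7.74%). Their median depth was 3889 UMIs, against 4726 UMIs in the endothelial-rule cells. With the looser requirement of 3 endothelial markers at any share of UMIs, 33 cells stood at 48.8 CPM (31 UMIs), and 8 of them were positive (24.2%).

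Rbpms was also counted in cells with markers of other types, all of which the authors label as macrophages. Whether these cells give a background level was not tested. Of 38 cells with at least 3 T and NK markers 0 were positive, which allows a share of up to 7.89% at a median of 2318 UMIs per cell. Of 48 cells with at least 3 astrocyte markers 0 were positive, which allows up to 6.25% at 2750 UMIs. Of the 325 oligodendrocyte-rule cells 3 were positive (0.923%, exact interval 0.191% to 2.67%), with Rbpms at 4.75 CPM and 1213 UMIs in the median cell. With at least 3 oligodendrocyte markers at any share, as used for the T, NK and astrocyte cells, 38 of 683 were positive (5.56%), at 11.6 CPM and 2656 UMIs in the median cell. Of 12 fibroblast-rule cells 1 was positive, at 94.4 CPM on 2 UMIs. The 1.94% of all cells from 1000 to under 3000 UMIs lies inside the limits of the T and NK, astrocyte and oligodendrocyte-rule cells. It lies below the interval of the 683 cells (3.97% to 7.56%), which hold 38 of the 72 positive cells. None of these sets was limited to that depth range, and no comparison at equal depth was made. Free RNA carried over between droplets was not measured separately.

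Other RGC genes were scarce in the positive cells. Of 24 RGC markers besides Rbpms, 13 had 0 UMIs in all 72 cells, including the glutamate transporter gene Slc17a6 and the transcription factor genes Pou4f1, Pou4f2 and Pou4f3 that define RGCs. The paralog Rbpms2 had 1 UMI in 1 positive cell, the endothelial-rule cell with 4 Rbpms UMIs. Ebf1 gave the most, 37 UMIs, and 31 of them lay in 5 of the 6 endothelial or mural-rule cells. All 15 UMIs of Stmn2 lay in 3 of those 6 cells. In the 63 positive cells outside the rules, no RGC marker was seen in more than 5 cells, and the one seen in 5 was Rtn1, a reticulon gene. At least 1 of the 24 markers was seen in 21 of 70 matched positive cells (30.0%) and 48 of 205 matched negative cells (23.4%). With endothelial, mural, fibroblast and oligodendrocyte-rule cells left out of both classes, these became 16 of 62 (25.8%, 15.5% to 38.5%) and 45 of 176 (25.6%, 19.3% to 32.7%).

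Across conditions, Rbpms was lower per UMI in the injured than in the uninjured libraries of each tissue. Uninjured retina libraries 5 and 6 stood at 35.0 and 35.2 CPM, and the injured retina pools at 14.1 and 6.43 CPM. Uninjured optic nerve libraries 2 and 4 stood at 19.5 and 58.2 CPM, and injured nerve libraries 1 and 3 at 3.05 and 11.8 CPM. Without the listed cells the levels were 29.0 and 35.2 CPM in uninjured retina, 14.2 and 6.66 CPM in injured retina, 19.8 and 27.7 CPM in uninjured nerve, and 4.09 and 9.02 CPM in injured nerve. Within each tissue the injured libraries lay below the uninjured ones, with or without those cells. With 2 libraries in a group this order can arise by chance, and how many other genes show it was not counted. The levels rest on few molecules: 5 and 2 Rbpms UMIs in uninjured retina, 20 and 2 in injured retina, 7 and 5 in uninjured nerve, and 1 and 64 in injured nerve. Without the listed cells uninjured nerve 4 and injured nerve 1 each rest on 1 UMI.

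The share of positive cells was 16.4% ± 0.380 (SD, n = 2) in uninjured and 9.09% ± 7.90 in injured retina, and 6.48% ± 0.932 in uninjured and 3.13% ± 3.46 in injured nerve. Depth moved these shares: the first injured retina pool had 14.7% positive cells at a median depth of 18311 UMIs in its positive and 12418 UMIs in its negative cells. When cells were thinned to 1000 UMIs, which left out the 277 shallower ones, the expected share in that pool was 1.001%, against 3.66% and 3.07% in the uninjured retina libraries and 0.520% in the other pool. The thinned shares were 2.31% and 1.501% in uninjured nerve and 0.163% and 1.08% in injured nerve. The cells left out were 66 of 146 and 182 of 682 in injured nerve libraries 1 and 3, 19 of 103 and 9 of 28 in uninjured nerve libraries 2 and 4, and 1 in retina. With 2 libraries a group no exact permutation test within a tissue can reach the threshold, and none was run here.

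**Figure D2:**
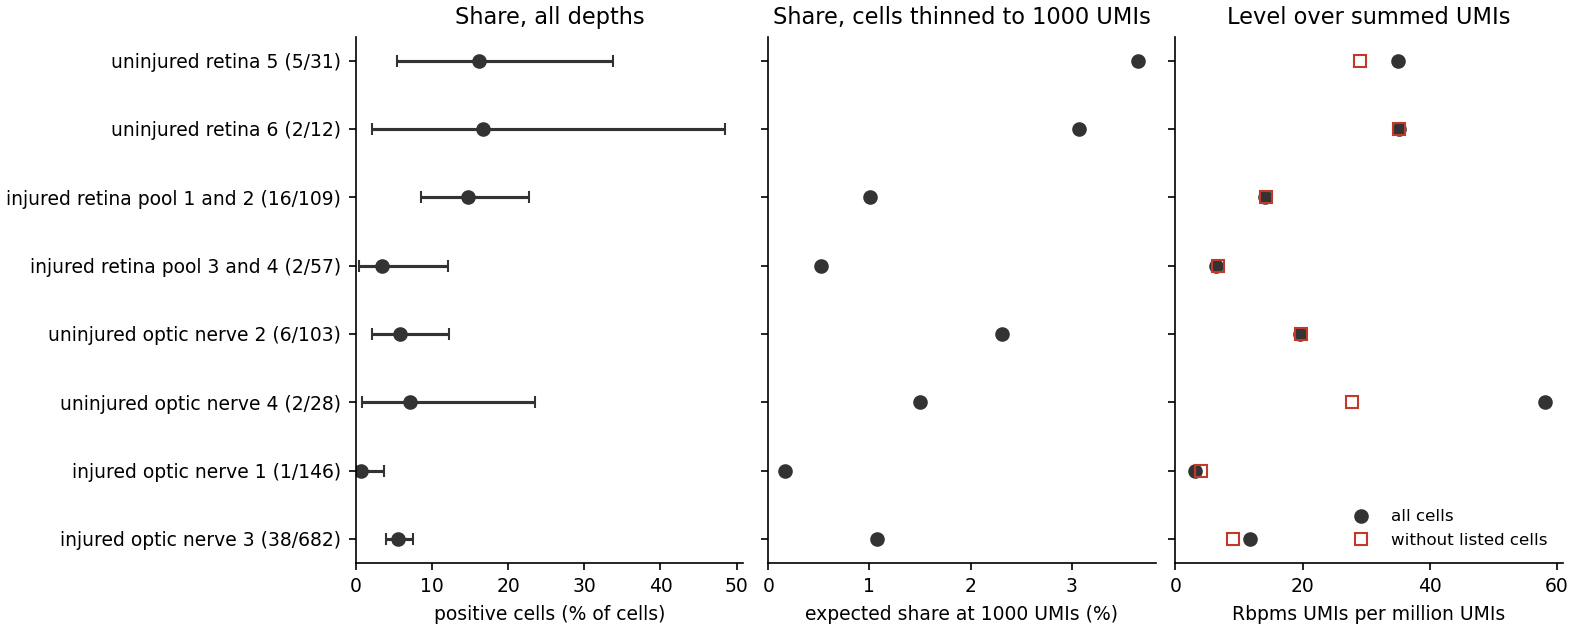
For each of the 8 libraries, the share of positive cells with exact 95% intervals (left, percent), the expected share with cells of at least 1000 UMIs thinned to that number (middle, percent) and Rbpms CPM with and without listed cells (right). The injured retina pool 1 and 2 ranks near uninjured retina by share (14.7%) but not after thinning (1.001%).

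At matched depth no gene passed the test between the classes. Expression was compared as the mean of ln(1 + 10000 x the gene's share of a cell's UMIs), called the ln value below, per library and class. Only the 4 libraries with at least 5 matched positive cells entered: 5 positive cells with 15 negative in uninjured retina 5, 15 with 41 in the first injured retina pool, 6 with 18 in uninjured nerve 2 and 38 with 114 in injured nerve 3. limma with the library as a block called 0 of 6730 genes (0.0%) at an adjusted p under 0.05, and the smallest adjusted p was 0.889 by limma. At an unadjusted p under 0.05, 142 genes were higher (2.11%) and 115 lower (1.71%). DESeq2 on summed counts also called 0 genes, with 61 at an unadjusted p under 0.05. The 95% interval of a gene's difference had a median half-width of 0.185 in ln value, so differences of that size lay within the error for a typical gene. On simulated cells this fit missed most of the smaller planted increases and most planted decreases, so the absence of calls does not show that the classes were alike.

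Tsc22d1, a leucine zipper regulator of the TGF-beta-stimulated clone family, had the smallest p. Its ln value was 0.93 in positive and 0.08 in negative cells of uninjured retina 5, 0.17 and 0.13 in the injured retina pool, 1.17 and 0.31 in uninjured nerve 2, and 0.43 and 0.12 in injured nerve 3. It was higher in 4 of 4 libraries, by 0.52 ± 0.13 (SE; 95% interval 0.24 to 0.79), and did not pass (limma adjusted p = 0.889). These UMIs were concentrated: of 127 in positive cells, 97 (76.4%) lay in the 6 endothelial or mural-rule cells, 61 of them in 1 cell. The other 66 positive cells held 30 UMIs in 20 cells, at most 3 in each. With the rule cells left out of both classes, the library differences were 0.43, 0.04, 0 and 0.20 in the same order. Uninjured retina 5 then held 4 matched positive cells and uninjured nerve 2 held 2. Tsc22d1 was then seen in 30.6% of positive and 19.3% of negative cells.

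Malat1, a long noncoding RNA that stays in the nucleus, was higher by 0.51 ± 0.14 (95% interval 0.21 to 0.81) and did not pass (limma adjusted p = 0.889). Its ln values were 5.13 in positive and 5.25 in negative cells of uninjured retina 5, and 4.92 and 4.56 in the injured retina pool. In nerve they were 5.58 and 4.53 in uninjured library 2, and 4.82 and 4.06 in injured library 3. It was thus higher in 3 of 4 libraries and slightly lower in uninjured retina. On counts summed over cells the direction turned, at -0.11 (log2) by edgeR and -0.02 by DESeq2. Leaving out the rule cells left library differences of -0.32, 0.36, 0.78 and 0.68, with 4 positive cells in uninjured retina 5 and 2 in uninjured nerve 2.

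The other genes with the smallest p on the higher side were 2 RNA-binding protein genes, Celf1 (0.36 ± 0.10) and Rbms1 (0.35 ± 0.11), the interferon-induced membrane protein gene Ifitm3 (0.47 ± 0.145) and Taf1d (0.40 ± 0.13), a subunit of an RNA polymerase I factor. Each was higher in 4 of 4 libraries and none passed adjustment. Rbms1 stayed at 0.24 without the listed cells and with libraries of at least 2 positive cells, whereas Celf1 turned to -0.08 there. Ifitm3 stood at 0.08 in that setting. Taf1d lies over many small RNA genes, so its reads may not all be its own.

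On the lower side the smallest p values belonged to Gphn (-0.14 ± 0.041), a receptor scaffold gene, Crcp (-0.11 ± 0.035), Arhgap12 (-0.20 ± 0.067), Saysd1 (-0.19 ± 0.066), the lipoprotein gene Apoe (-0.44 ± 0.145) and the chemokine gene Ccl4 (-0.61 ± 0.21). All 6 were lower in 4 of 4 libraries. For Gphn, Crcp, Arhgap12 and Saysd1 the ln value was at most 0.07 in positive cells and at most 0.45 in negative cells of any library, so they rest on few UMIs. Apoe turned to 0.13 with libraries of at least 2 positive cells and to 0.28 when listed cells were also left out.

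Injured optic nerve library 3 held most of the positive cells, and there several genes that were called after weighting stood lower in them than in the depth-matched negative cells. The genes given here were picked after their values were seen. The ln value of Apoc1, an apolipoprotein gene, was 1.27 in the 38 positive and 3.06 in the 114 negative cells. That of Spp1, which encodes osteopontin, was 2.58 and 3.76. Lipoprotein lipase, Lpl, stood at 0.62 and 1.45, the cystatin genes Cst3 and Cst7 at 3.98 and 4.68 and at 0.59 and 1.13, and the complement gene C1qa at 3.29 and 4.09. In the same library the scaffold gene Ahnak stood at 0.94 in positive and 0.17 in negative cells, the intermediate filament gene Vim at 2.12 and 1.53, and the growth factor gene Vegfa at 0.54 and 0.26. Without the rule cells the differences there were -1.73 for Apoc1, -1.11 for Spp1, -0.79 for Lpl, -0.56 for Cst3 and -0.61 for C1qa. In uninjured nerve 2, where 3 of the 6 positive cells had 0 pan-macrophage markers, Spp1, Lpl, Cst3 and C1qa were also lower in positive cells. Without the rule cells Spp1, Lpl and Apoc1 were at 0 in both classes of that library, which then held 2 positive cells. Retina ran the other way for some of these genes. In the injured pool Apoc1 stood at 0.88 in positive and 0.22 in negative cells. Spp1 was close there, at 0.87 and 0.84, and lower in positive cells on summed counts, at 581 and 928 CPM. In uninjured retina 5 both genes were lower in positive cells, Apoc1 at 0 and 0.08 and Spp1 at 0 and 0.19. Lpl stood at 0.43 and 0.22 in uninjured retina 5 and at 0.45 and 0.40 in the pool, and C1qa at 4.41 and 4.17 and at 3.98 and 3.92.

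At matched depth limma called these genes when library means were weighted by their number of cells, a choice made after seeing the data. It then called 21 of 6730 genes (0.312%), 10 higher and 11 lower. Spp1 fell by 0.76 ± 0.12 (limma adjusted p = 6.2e-07) and Apoc1 by 0.92 ± 0.10 (limma adjusted p = 5.5e-17). Malat1 rose by 0.63 ± 0.080 (limma adjusted p = 1.4e-11) and Ahnak by 0.52 ± 0.090 (limma adjusted p = 1.2e-05). In the planned fit without weights Spp1 stood at -0.45 ± 0.18 and did not pass (limma adjusted p = 0.889). The weighted fit takes the spread almost wholly from other genes, which makes its p values small. Without listed cells and with libraries of at least 2 positive cells, 9 genes were called, and 7 of the 21 were among them: Apoc1, Malat1, Spp1, Ahnak, Vegfa, Vim and Cst3. The weighted result rested on injured nerve library 3, since without it 1 gene, Malat1, was called, at 0.43 (limma adjusted p = 0.039). Without that library Apoc1 turned to 0.36 and Spp1 stood at -0.12. Without uninjured retina 5 the weighted fit called 6 genes.

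**Figure D3:**
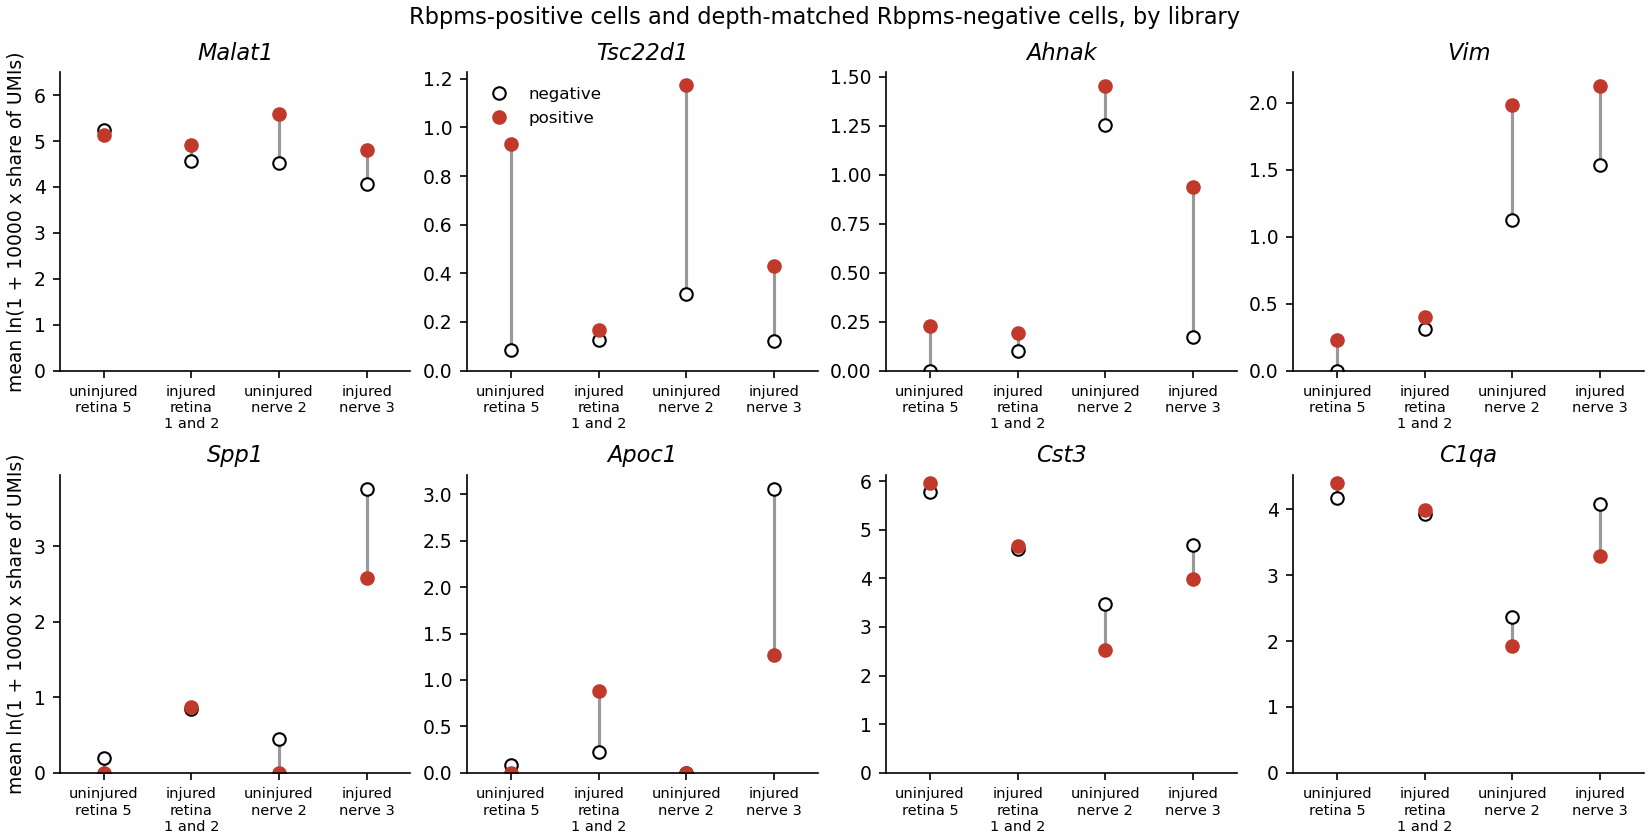
Mean ln value of 8 genes in positive (filled) and depth-matched negative (open) cells of the 4 libraries compared, with a line joining the classes of a library. Spp1 and Apoc1 separate in injured nerve 3, where positive cells stand at 2.58 and 1.27 and negative cells at 3.76 and 3.06.

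edgeR on counts summed per library and class called 24 genes (0.357%), 13 higher and 11 lower, and 6 of these were also called by weighted limma. On the higher side the calls followed the few endothelial or mural-rule cells. In 11 of the 13 genes most UMIs of the positive cells lay in the 5 matched cells of those rules, at 40.4% to 83.3% per gene over the 13, while the 5 cells held 7.46% of all UMIs. Examples are Tsc22d1 (log2 2.10, edgeR adjusted p = 5.2e-05), the spectrin gene Sptbn1 (1.88) and the tight junction scaffold gene Tjp1 (1.48). On the lower side the 5 cells held at most 12.5% of a gene's UMIs. The matrix gene Postn (-2.53), the B-cell chemokine gene Cxcl13 (-2.36), Spp1 (-1.42) and the receptor gene Gpr84 (-1.53) were among them. Postn, Cxcl13 and Gpr84 were the 3 of the 24 that edgeR also called when listed cells were left out and libraries of at least 2 positive cells were used. In injured nerve library 3 Cxcl13 had 0 CPM in positive and 557 CPM in negative cells, and in the injured retina pool 843 and 722 CPM. In that pool 133 of the 248 UMIs of positive cells lay in 1 cell, and without it the level was 415 CPM over total UMIs.

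The class difference differed between tissues for 2 genes (0.0297%) by limma's interaction of class and tissue. Malat1 exceeded negative cells by more in nerve than in retina, with a difference of -0.79 ± 0.14 for retina minus nerve (limma adjusted p = 2.8e-04). Cst3, which encodes the protease inhibitor cystatin C and is abundant in microglia, was lower in positive cells of both nerve libraries (by -0.94 and -0.70) and close to negative cells in retina (0.19 and 0.05). Its difference was 0.94 ± 0.17 (limma adjusted p = 2.8e-04). In uninjured nerve 2, 3 of the 6 positive cells had 0 pan-macrophage markers. Without the rule cells the Cst3 differences were 0.21 and 0.05 in retina and -1.81 and -0.56 in nerve, and no test was run on these. Neither call held when any 1 of the 4 libraries was left out, and both rest on 2 residual degrees of freedom with the spread borrowed almost wholly from other genes. By injury, limma's interaction called 0 genes (0.0%), with 281 at an unadjusted p under 0.05.

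The gene lists gave the same picture of small differences in ln value, where the median over all 6730 genes was 0.002. Of 17 tested microglia markers all 17 lay below 0 in positive cells, with a median of -0.13, and 0 passed. Without the listed cells, and with libraries of at least 2 positive cells, 17 of 18 lay below 0 at a median of -0.28. Against all negative cells of any depth the median was 0.01, where that of all genes was 0.03. Of 23 lysosome and phagocytosis genes 20 lay below 0 (median -0.14), led by the protease gene Lgmn at -0.58 ± 0.22. With the listed cells left out and libraries of at least 2 positive cells, 15 of 23 did (median -0.12). Of 21 disease-associated microglia genes 16 lay below 0 (median -0.16), and of 14 chemokine and cytokine genes 11 did (median -0.13). Without the listed cells, and with libraries of at least 2 positive cells, 13 of 21 and 9 of 15 did (medians -0.08 and -0.06). Against all negative cells the medians were -0.04 and -0.04, where that of all genes was 0.03.

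On the other side, 10 of 13 heat shock genes lay above 0 (median 0.17), with the chaperone gene Hsp90ab1 at 0.41 ± 0.20. On log2(CPM + 10) their median was -0.02, where the median of all genes was itself -0.17. It was 0.02 in ln value without the listed cells and with libraries of at least 2 positive cells. Of 17 RNA binding and splicing genes besides Rbpms 11 lay above 0 (median 0.08), among them Celf1 and the helicase gene Ddx17 (0.28 ± 0.11), and the median was -0.01 under that same change of cells and libraries. Of 15 TGF-beta and SMAD pathway genes 11 lay above 0 (median 0.08), with Ski, a repressor of SMAD signalling, at 0.25 ± 0.12. On summed counts 6 of 15 did by edgeR (median -0.12) and 7 of 15 by DESeq2 (median -0.03). The medians of all genes were -0.07 and -0.05 in those fits. All 4 tested nuclear RNAs lay above 0, from Neat1 at 0.12 to Malat1. On log2(CPM + 10) 3 of 4 did, and on summed counts 2 of 4 did by edgeR and 2 of 4 by DESeq2. Of the 9 tested Tsc22 family and glucocorticoid target genes 6 lay above 0 (median 0.10), and Tsc22d2 stood at -0.26 ± 0.14, opposite to Tsc22d1. The medians were 0.03 for class I and -0.04 for class II antigen presentation genes. On log2(CPM + 10) they were -0.07 and -0.94, where the median of all genes was itself -0.17. Within class I, H2-T23 stood at 0.55 ± 0.19. Its differences were 0.73 in uninjured retina 5 and 1.43 in uninjured nerve 2, but 0.002 in the injured retina pool and 0.05 in injured nerve 3. None of these genes passed adjustment.

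**Figure D4:**
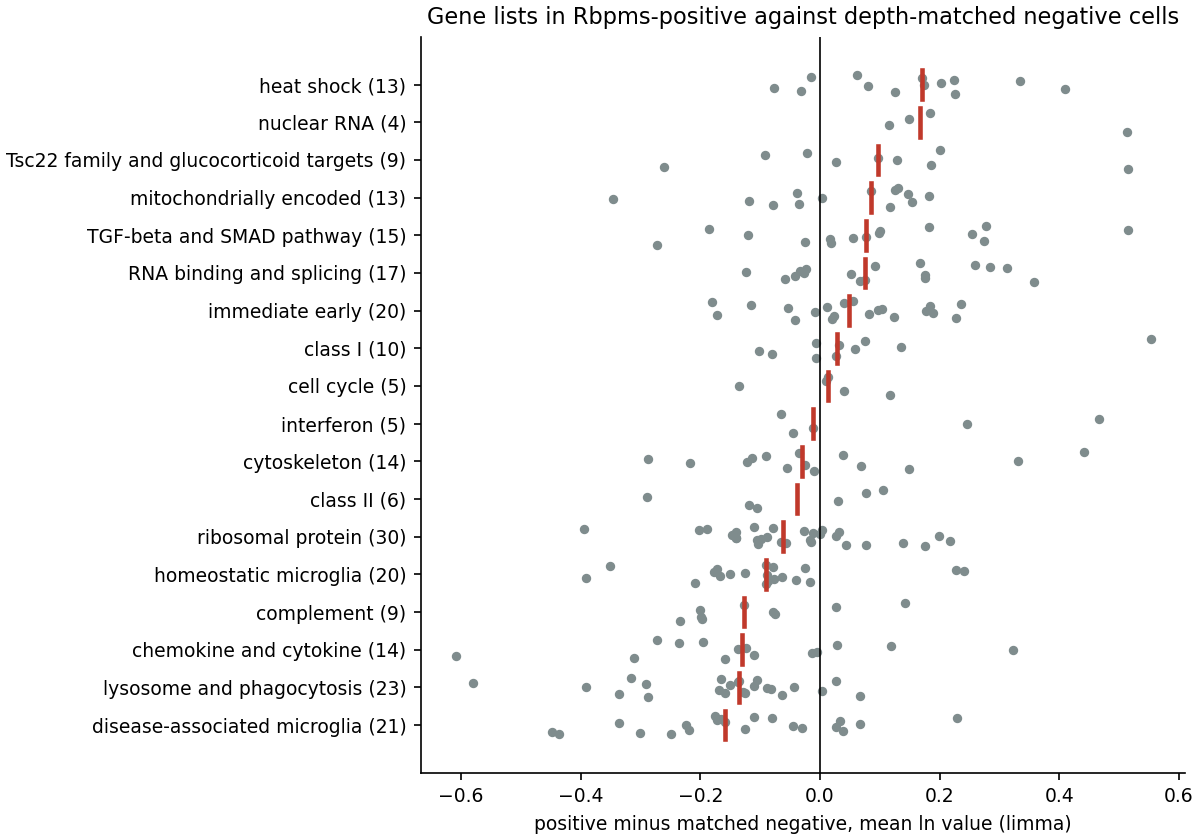
Difference in ln value between positive and matched negative cells (limma) for each tested gene of 18 lists; points are genes, red bars medians, and numbers in brackets genes tested. The medians run from -0.16 for disease-associated microglia genes to 0.17 for heat shock genes.

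Over all 8 libraries, 39 measures of the matched cells were compared, and 0 passed adjustment. Each library counted equally, though uninjured nerve 4 and injured nerve 1 held 1 matched positive cell each. Uninjured retina 6 and injured retina pool 3 and 4 held 2 each. With 8 libraries the smallest possible exact p is 0.00781, so a lone measure at that p could not pass adjustment over 39. Positive cells showed more genes than matched negative cells in 8 of 8 libraries, by 144 ± 90.3 genes (SD, n = 8; 2337 against 2193 on average; exact sign-flip permutation p = 0.00781, adjusted 0.152). Their monocyte-marker share of UMIs was higher in 7 of 8 libraries and at 0 in both classes of the other (0.151% against 0.0637%; exact permutation p = 0.0156, adjusted 0.152). In the first injured retina pool (0.131% against 0.0695%) 1 positive cell stood at 1.28%, and no other matched positive cell was above 0.122%. In uninjured retina 5 only 1 positive cell held any, at 0.042%, and it met the endothelial rule. Their endothelial-marker share was higher in 7 of 8 libraries and lower in the first injured retina pool (0.241% against 0.0313% on average; exact permutation p = 0.0156, adjusted 0.152). Its widest gap, 1.23% against 0.0579% in uninjured nerve 2, came from 1 cell at 7.20%, and the other 5 positive cells averaged 0.0306%. In injured nerve 3 (0.132% against 0.0577%) 2 endothelial-rule cells stood at 1.56% and 1.64%, and no other positive cell was above 0.471%. In uninjured retina 5 (0.413% against 0.0440%) 1 endothelial-rule cell stood at 1.86%. The microglia-marker share was lower in 6 of 8 (2.49% against 3.001%; exact permutation p = 0.0391, adjusted 0.305). Matching left a residual depth gap: the median depth was higher in matched positive than in matched negative cells in 8 of 8 libraries. The medians were 18278 and 15554 UMIs in the first injured retina pool, and 2516.5 and 2494 UMIs in uninjured nerve 2. This gap has the same direction as the gene count, and its part in that count was not tested.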

How the data were processed

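Single-cell RNA-seq of microglia and macrophages was analysed from 1 table of 1168 cells in 8 libraries. Per the submitters' processing notes and the series text, reads were processed with bcl2fastq 2.17.1.14 and Cell Ranger 1.3 against mm10, and cells were merged in Seurat 4.0.3. Per the deposited values, retina columns hold raw UMI counts, and optic nerve columns hold natural log values, ln(1 + 10000 x UMI / cell total). Undoing that log gave whole UMIs for 100% of the nonzero values (within 0.01).

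Positive cells, taken by the authors' label, were each matched to the 3 nearest negative cells of their library in log total UMI (deepest first, factor 1.5, no replacement). limma 3.58.1 (trend, library as block) was run on mean ln values per library and class for genes detected in 10% or more of the compared cells, with Benjamini-Hochberg adjustment. edgeR 4.0.16 (quasi-likelihood) and DESeq2 1.42.0 on summed recovered counts were alternatives. Labels give the groups only for libraries, and every test used values per library, not single cells. The weighted limma fit gave each library mean a weight equal to its number of cells, so its p values depend on cell numbers. Cell measures were compared by an exact sign-flip permutation test over libraries. Shares have exact Clopper-Pearson 95% intervals, and where 0 cells were positive, 3 cells set the upper limit. Gene positions and overlaps came from GENCODE M21 (GRCm38). The fits were tested on simulated cells, where limma without weights missed most of the smaller planted increases and most decreases. There limma weighted by cell number found more, and neither called an unchanged gene. The simulated class difference was the same in every library, and no cells of other types were mixed in. The simulation therefore cannot show how often the weighted fit calls unchanged genes in the real data. Retina and nerve values were set side by side only after both were put on the ln scale.

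Named genes were the 6 with the smallest p in each direction where none passed, Rbpms, Rbpms2, Tsc22d1, Malat1, Spp1 and the leading members of each list; genes called only by edgeR or by weighted limma were named after their values were seen. The members and lists were chosen with earlier results of these data known. Rbpms (ENSMUSG00000031586; chromosome 8, 33782643 to 33929863, minus strand) overlaps 2 noncoding genes, and Malat1 (chromosome 19, 5795690 to 5802672) also overlaps 2; Tsc22d1 (chromosome 14, 76414961 to 76507765) overlaps none.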

Additional observations from a re-analysis of the deposited data

Results flagged for a closer look

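The class difference of Malat1 was -0.79 for retina minus optic nerve and that of Cst3 was 0.94, and each passed the test of the difference between tissues itself (limma interaction, adjusted p = 2.8e-04 for both). Neither call held when any 1 library was left out. The Malat1 differences were -0.12 and 0.36 in retina and 1.05 and 0.76 in nerve. For Cst3 they were 0.19 and 0.05 in retina and -0.94 and -0.70 in nerve. Each tissue is represented by 2 libraries, 1 uninjured and 1 injured, and the uninjured nerve value rests on 6 positive cells. Of these, 3 had 0 pan-macrophage markers and met the endothelial, mural or fibroblast rule. Without the cells of those rules and of the oligodendrocyte rule, 2 positive cells remained in that library, and the nerve differences were -1.81 and -0.56 for Cst3 and 0.78 and 0.68 for Malat1.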

How the results depend on the processing

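The count of genes called between the classes, 0 by limma, was 2 against all negative cells (Malat1 and Tsc22d1), 24 by edgeR, 2 without listed cells (2 libraries left) and 0 by DESeq2. Added after seeing the data, limma weighted by cell number called 21. With listed cells left out and the library minimum lowered to 2 positive cells, also added, limma called 0, edgeR 6 and weighted limma 9. The remaining alternatives with the 4 libraries, on matching, thinning, filter and scale, called 0. Leaving out 1 library gave 0 to 31 calls, with every call above 0 in the weighted fit (26 without the first injured retina pool, 6 without uninjured retina 5, 31 without uninjured nerve 2, 1 without injured nerve 3). The tissue interaction fell from 2 calls to 1 against all negative cells and to 0 without any 1 library. The injury interaction gave 0 to 1660 calls when 1 library was left out (1475 without uninjured nerve 2, 1660 without uninjured retina 5), with 1 residual degree of freedom, and the cause was not tested. No replicate block, that is a fit that ignores the library pairing of the classes, also called 0. The mean share of positive cells over libraries was 8.78%, and 1.66% after thinning to 1000 UMIs, by construction. Directions turned for Malat1 (-0.11 by edgeR, -0.0216 by DESeq2, -0.47 by edgeR without listed cells), Celf1 (-0.0322 with at least 2 positive cells per library, -0.0778 also without listed cells) and Apoe (0.13 and 0.28 under the same settings); the cause was not tested. Depth limits the class itself, since 57 of 72 cells were called on 1 UMI.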
